A study of Mus musculus with 64 samples.

Results

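The acute response to corticosterone (CORT) in the hippocampus of Angelman syndrome (AS) mice is described here from 12 of the 64 RNA-seq samples of the series, chosen by their labels as AS mice of the acute experiment. Of these, 6 mice had received vehicle (libraries H13 to H18) and 6 had received CORT (libraries H19 to H24). AS mice were Ube3a m-/p+, that is, exon 5 was deleted from the copy of Ube3a inherited from the mother. Ube3a encodes a ubiquitin ligase and is expressed in neurons from that copy. WT mice were littermates, and all were of an F1 hybrid background of C57BL/6J and 129sv. All were adult males of 10 to 18 weeks. CORT (3 mg/kg) or its ethanol and PBS vehicle was given by subcutaneous injection in the morning, and the left hippocampus was collected 3 h later, so that every value is a whole-tissue mean of neurons, glia and vessels. In such samples, fewer cells of a type and less RNA per cell cannot be told apart. The question of the comparison is how hippocampal gene expression responds to a glucocorticoid pulse when neuronal UBE3A is lacking.

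CORT is the main glucocorticoid of rodents. It binds the mineralocorticoid receptor at low levels and the glucocorticoid receptor (GR) at the levels reached after stress, and the activated GR moves to the nucleus, where it raises the transcription of genes with GR response elements and lowers that of others. Its classical targets include Fkbp5, which encodes a chaperone that lowers the affinity of GR for its ligand, and Tsc22d3 (GILZ), which encodes an anti-inflammatory protein. In the hippocampus GR is present in neurons, astrocytes, oligodendrocytes and endothelial cells, and many of its rapid targets belong to glia and vessels.

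Between 19049461 and 20671242 reads per AS mouse were counted on genes. The counting tool also reports the reads that it set aside for too low alignment quality, and these divided the libraries. They numbered 1877 to 2078 in the vehicle mice H13 to H16, 2735 in H17, 2850 in H18, and 2640 to 2785 in the 6 CORT mice. The 12 WT mice of the same experiment, libraries H1 to H12, lay between 1929 and 2237. Of the AS vehicle mice H17 thus lay within the range of the CORT mice, H18 just above it and H13 to H16 below it. Such reads were 0.0110 to 0.0118% of a library in H17 to H24 and 0.0078 to 0.0093% in H1 to H16. In reads without a unique alignment, H17 (1500508) lay within the CORT mice (1409151 to 1598623) and H18 (1667098) above them. The labels name no batch that would account for the division. CORT mice were therefore compared with all 6 AS vehicle mice and, through a covariate for the division, with H17 and H18. Both fits used all 24 acute libraries. The second is a comparison of 6 mice with 2, whose spread is borrowed from the other groups, and its median standard error over genes was 0.120 against 0.0888 on the log2 scale.

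**Figure D1:**
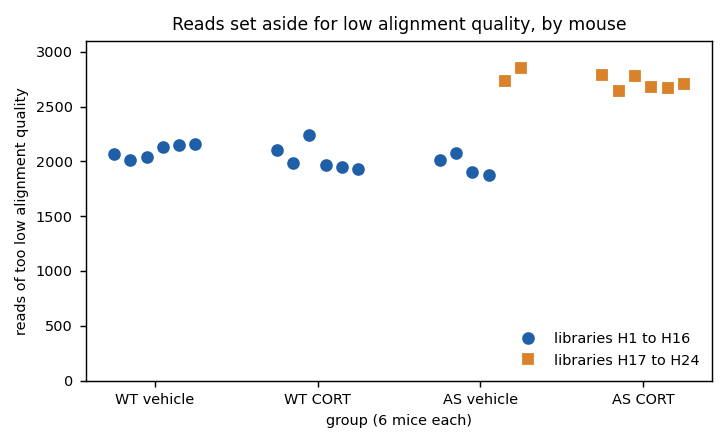
Reads of too low alignment quality per library (y axis, number of reads, from 0) in the 4 groups of 6 mice (x axis). Each point is 1 mouse, circles are libraries H1 to H16 and squares H17 to H24. All 6 AS CORT mice and 2 of the 6 AS vehicle mice lie between 2640 and 2850 reads, and the other 16 mice between 1877 and 2237.

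Against all 6 AS vehicle mice, 2612 of 14611 genes passed the threshold of an adjusted p under 0.05 (17.9% of those tested), 1206 higher (8.25%) and 1406 lower (9.62%) with CORT. Against H17 and H18, 150 genes passed (1.03%), 121 higher (0.828%) and 29 lower (0.198%), and 1219 had an unadjusted p under 0.05. Both comparisons called the same 145 genes in the same direction, which are the genes that held within H17 to H24. They comprised 117 genes that rose and 28 that fell, 136 of them protein-coding, and they made up 5.55% of the genes called over all 12 mice. These shares follow from the choice of the genes and carry no test of their own. When H17 was left out, 41 of the 145 kept their call against the remaining mouse, and when H18 was left out, 47 did. A core of 28 genes kept its call whichever of the 12 AS mice was left out, and all 28 rose. It holds Fkbp5, Tsc22d3, Cdkn1a, Slc2a1, Mfsd2a, Xdh, Hif3a, Map3k6, Gjb6, Mertk, Pnpla2, Sult1a1, Fzd2, Sdc4, Hacd2, Frmpd1, Cmtm3, Klhdc7a and Lao1, which are described with their values, and Atp10a, Lrrc58, Mlph, Mxd4, Notch4, Nrros, Ptgfrn, Rin2 and Ucp2. Of the 28 genes that fell, 0 kept the call both without H17 and without H18.

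The core letters of the GR response element (ACA and TGT with any 3 bases between them, a pattern that is its own reverse complement, so that each match holds for both strands) were searched in the RefSeq promoter windows of the genes that held (GRCm38.p6, 250 bases before to 50 after a start site). Windows were found for 92 of the 117 genes that rose, and 11 of these genes (12%) had the motif in at least 1 window. They were found for 16 of the 28 genes that fell, and 0 of these had it. Of the 10948 tested genes with a window, 566 (5.17%) had it. The 11 genes were Map3k6, Notch4, Fam107a, Dhx33, Galnt15, B3galt5, Tinagl1, Glul, Sh3bp5, Lurap1l and Mettl11b, whereas Fkbp5, Tsc22d3 and Slc2a1 were not among them. Any windows of these 3 genes that were searched lacked these letters, which says nothing of elements farther away. The 3 with the smallest p-values within H17 to H24 are given over the 250 bases before their start sites, with the motif in capitals, to give examples of where it stands.
Map3k6: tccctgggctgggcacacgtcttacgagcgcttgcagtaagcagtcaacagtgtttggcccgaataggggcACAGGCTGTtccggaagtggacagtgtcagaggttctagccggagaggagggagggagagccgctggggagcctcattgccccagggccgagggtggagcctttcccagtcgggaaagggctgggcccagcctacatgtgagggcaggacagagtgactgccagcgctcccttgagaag
Notch4: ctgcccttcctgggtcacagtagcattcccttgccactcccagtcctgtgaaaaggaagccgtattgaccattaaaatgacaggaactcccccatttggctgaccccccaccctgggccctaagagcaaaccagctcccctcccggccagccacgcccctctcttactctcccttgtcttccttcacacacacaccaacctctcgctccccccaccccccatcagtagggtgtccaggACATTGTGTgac
Fam107a: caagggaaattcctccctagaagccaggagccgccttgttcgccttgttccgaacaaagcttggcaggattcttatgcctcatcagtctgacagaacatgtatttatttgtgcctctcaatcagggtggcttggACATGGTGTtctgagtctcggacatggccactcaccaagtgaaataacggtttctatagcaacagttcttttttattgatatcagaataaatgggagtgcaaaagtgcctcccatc
These stretches lie at chr4:133240568-133240817 on the plus strand, chr17:34564045-34564294 on the plus strand and chr14:8309780-8310029 on the minus strand. The motif ends 170, 3 and 107 bases before the start site. The 3 genes rose within H17 to H24, Map3k6 by 2.12 ± 0.235 (log2 fold change ± SE), Notch4 by 0.90 ± 0.127 and Fam107a, a stress-responsive actin-binding protein gene, by 0.50 ± 0.0819.

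Of 32 genes listed as GR targets in many tissues, 30 were tested. Over all 12 mice 23 rose and 0 fell, where 1206 of the 14611 genes tested rose. Within H17 to H24 13 rose and 0 fell, where 0.828% of all genes rose. The median log2 fold change there was 0.56 over the 30 genes against 0.0033 over all genes tested. The list was chosen with earlier results of these data known, which can favour these counts and medians. The 13 were Fkbp5, Tsc22d3, Zbtb16, Cdkn1a, Mt2, Hif3a, Arrdc2, Gjb6, Mertk, Sult1a1, Pnpla2, Slc2a1 and Map3k6. Leaving out H17 gave 10 and leaving out H18 gave 11.

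Fkbp5 (chr17:28399094-28517527 of GRCm38) had 48.6 to 60.5 CPM (normalised read counts scaled to a common library size by TMM) in H13 to H16, 56.1 in H17 and 54.5 in H18. The CORT mice had 113, 118 and 126 CPM (lowest, median and highest). No vehicle mouse came near the CORT mice, and the vehicle mice on either side of the division were alike. The log2 fold change was 1.11 ± 0.0938 within H17 to H24 (adjusted p = 5.76e-08) and 1.1 ± 0.0625 over all 12 mice. Tsc22d3 had 23.9 to 35.4 CPM in H13 to H16, 26.8 in H17 and 34.0 in H18, and 55.4, 63.0 and 65.7 CPM with CORT. It rose by 1.01 ± 0.133 within H17 to H24 (adjusted p = 5.17e-05). Zbtb16, which encodes a zinc finger transcription repressor, had 60.3 to 79.1 CPM in the vehicle mice and 94.6 to 109 with CORT, a change of 0.62 ± 0.132 within H17 to H24 (adjusted p = 0.0135).

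Nr3c1, the gene of GR itself, was lower with CORT over all 12 mice, by -0.34 ± 0.0651 (adjusted p = 0.00104). Within H17 to H24 it missed the threshold with nearly the same value (-0.36 ± 0.0906, adjusted p = 0.0537). Its levels were 79.3 to 95.6 CPM in the 6 vehicle mice and 64.0 to 75.3 in the CORT mice, which did not overlap. Sgk1, the gene of a glucocorticoid-induced kinase, passed the threshold in neither fit (0.65 ± 0.281 within H17 to H24, adjusted p = 0.487). H16, a vehicle mouse, had 80.7 CPM of Sgk1, whereas the other 5 vehicle mice had 39.7 to 46.0 and the CORT mice 48.7 to 83.7. Per1, a clock gene with a GR response element, had 76.8 to 115 CPM in vehicle mice and 77.4 to 102 with CORT and likewise passed in neither (0.16 ± 0.114 within H17 to H24, adjusted p = 0.843). Of the other GR targets, Klf9 (0.32 ± 0.0824, adjusted p = 0.0550) and Pdk4 (0.63 ± 0.173, adjusted p = 0.0889) lay nearest to the threshold within H17 to H24, and Nfkbia (0.44 ± 0.140) and Klf15 (0.38 ± 0.152) lay farther. All 4 rose over all 12 mice.

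Ube3a, the gene deleted in part in AS mice, had 64.1 to 79.9 CPM in the vehicle mice and 68.5 to 82.0 with CORT. The difference within H17 to H24 was 0.14 ± 0.130 (adjusted p = 0.895). These counts sum all exons and both alleles, so they do not show the deletion.

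**Figure D2:**
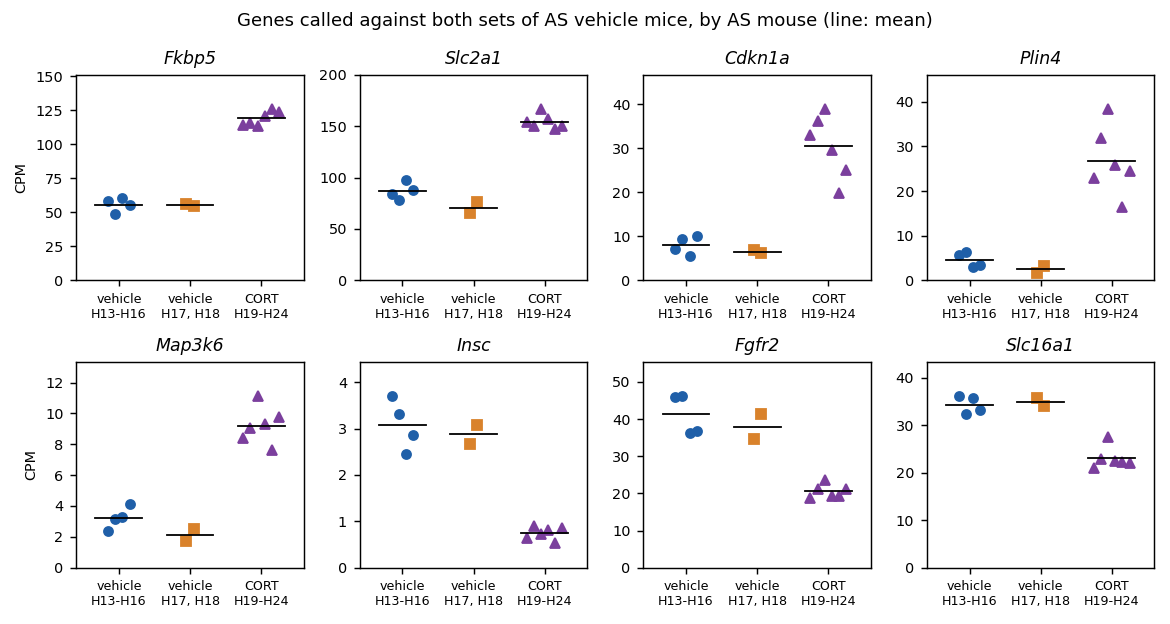
CPM (y axes, from 0) of 8 genes called against both sets of vehicle mice, by AS mouse. Circles are the vehicle mice H13 to H16, squares the vehicle mice H17 and H18, triangles the CORT mice, and lines group means. Fkbp5, Slc2a1, Cdkn1a, Plin4 and Map3k6 are higher and Insc, Fgfr2 and Slc16a1 lower in all 6 CORT mice than in all 6 vehicle mice.

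Slc2a1 rose and Slc16a1 fell, both genes of transporters for energy substrates. Slc2a1 encodes GLUT1, the glucose transporter of the blood-brain barrier and of astrocytes, and had the smallest p-value within H17 to H24. It had 78.6 to 98.0 CPM in H13 to H16, 65.5 in H17, 76.0 in H18 and 147, 152 and 167 CPM with CORT. It rose by 1.13 ± 0.0888 (adjusted p = 3.71e-08) within H17 to H24 and by 0.92 ± 0.0706 over all 12 mice. Slc16a1 encodes MCT1, the lactate and ketone body carrier of endothelium and oligodendrocytes, and moved the other way. Its levels were 32.4 to 36.1 CPM in the 6 vehicle mice and 21, 22.3 and 27.6 CPM with CORT, a change of -0.60 ± 0.112 within H17 to H24 (adjusted p = 0.00338). Mfsd2a, the carrier of docosahexaenoic acid at the blood-brain barrier, had 20.8 to 29.9 CPM with vehicle and 41.4 to 47.0 with CORT and rose by 1.09 ± 0.102 (adjusted p = 2.08e-07). In the list of 28 genes of glucose transport and glycolysis, Slc2a1 and Slc16a1 were the 2 called within H17 to H24 (1.03% of all genes were called), 3 rose and 3 fell over all 12 mice (17.9% of all genes were called), and the median of the list was -0.048.

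Kdr, which encodes the VEGF receptor of endothelial cells, fell by -0.78 ± 0.182 within H17 to H24 (adjusted p = 0.0283), from 8.86 to 11.4 CPM in the 6 vehicle mice to 3.87 to 7.05 with CORT. It is 1 of 11 endothelial markers, of which the other 10 passed in neither direction within H17 to H24 (0.198% of all genes fell and 0.828% rose). The summed level of the 11 was 214 to 256 CPM in H13 to H16, 209 in H17, 207 in H18 and 176 to 200 in the CORT mice. It was thus lower in every CORT mouse than in every vehicle mouse, while Slc2a1 and Mfsd2a were higher. Whether this has a part in the change of Kdr was not tested.

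Of the list of lipid droplet proteins and lipases, Plin4, Pnpla2 and Pla2g3 rose. Plin4 encodes a perilipin that coats lipid droplets. It had 2.99 to 6.30 CPM in H13 to H16, 1.75 in H17, 3.18 in H18 and 16.5, 25.1 and 38.4 CPM with CORT. The change was 3.43 ± 0.538 within H17 to H24 (adjusted p = 0.000569) and 2.77 ± 0.327 over all 12 mice. Pnpla2, the gene of adipose triglyceride lipase, had 23.8 to 29.0 CPM in H13 to H16, 16.8 in H17, 20.1 in H18 and 32.9, 39.2 and 48.0 CPM with CORT, a rise of 1.08 ± 0.143 (adjusted p = 5.17e-05). Pla2g3, which encodes a secreted phospholipase, rose by 1.53 ± 0.254 (adjusted p = 0.000939) from 1.47 to 2.51 CPM in the vehicle mice to 4.01 to 4.88. Of the 20 genes of lipid droplet proteins and lipases tested, these 3 rose and 0 fell within H17 to H24 (0.828% of all genes rose), and over all 12 mice 8 rose (1206 of 14611 genes did). Hacd2, an enzyme of very long-chain fatty acid elongation, rose by 0.77 ± 0.071 (adjusted p = 2.08e-07).

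Cdkn1a (p21), an inhibitor of cyclin-dependent kinases, was among the genes with the largest changes. It had 5.50 to 10.1 CPM in the 6 vehicle mice and 19.8, 31.3 and 38.9 CPM with CORT. It rose by 2.21 ± 0.341 within H17 to H24 (adjusted p = 0.000457). In the list of 21 genes of p53 and apoptosis, 4 rose and 0 fell within H17 to H24, where 0.828% of all genes rose, and 3 of the 4 also passed over all 12 mice. Beside Cdkn1a these were Pmaip1, the pro-apoptotic Noxa (1.61 ± 0.275), Trp53inp1, a stress-induced partner of p53 (0.77 ± 0.174), and Bcl2l1, the survival gene Bcl-xL (0.34 ± 0.0837, adjusted p = 0.0482). Bcl2l1 did not pass over all 12 mice (0.17 ± 0.0655, adjusted p = 0.0637), where its vehicle levels were 112 to 124 CPM in H13 to H16 and 99.0 and 102 CPM in H17 and H18. The members that rose thus act on either side of cell survival.

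Map3k6, a kinase upstream of JNK and p38, had 1.75 to 4.10 CPM in the vehicle mice and 7.62, 9.18 and 11.1 CPM with CORT. Hif3a, an inhibitory member of the hypoxia-inducible factors, had 8.95 to 10.3 CPM in H13 to H16, 5.19 in H17, 7.20 in H18 and 16.2, 22.2 and 25.6 CPM with CORT, and rose by 1.80 ± 0.214 (adjusted p = 1.04e-05). Maff, a small bZIP transcription factor gene, rose by 1.97 ± 0.359 (adjusted p = 0.00274) from 0.291 to 0.961 CPM with vehicle to 1.05 to 1.65. Xdh, which encodes xanthine oxidoreductase of purine breakdown, had 5.86 to 7.96 CPM in H13 to H16, 3.98 in H17, 5.09 in H18 and 13.5, 14.4 and 16.6 CPM with CORT. It rose by 1.70 ± 0.141 within H17 to H24 (adjusted p = 5.55e-08) and by 1.33 ± 0.109 over all 12 mice, and H17 and H18 were lower than H13 to H16 by -0.53 ± 0.150 (adjusted p = 0.0294). Mt2, a metal-binding metallothionein gene, rose by 0.78 ± 0.144 (adjusted p = 0.00294), from 84.8 to 108 CPM to 136 to 182. Sult1a1, the gene of a phenol sulfotransferase, rose by 1.01 ± 0.153 (adjusted p = 0.000354) from 4.59 to 5.98 CPM to 10.7 to 12.7. Arrdc2, an arrestin-domain gene, rose by 1.15 ± 0.229 (adjusted p = 0.00672).

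Gjb6, the astrocytic gap junction protein connexin 30, had 35.1 to 45.1 CPM in H13 to H16, 32.5 in H17, 32.1 in H18 and 55.5, 60.2 and 67.9 CPM with CORT, and rose by 0.92 ± 0.105 (adjusted p = 5.81e-06). Mertk, a phagocytic receptor of astrocytes and microglia, rose by 0.78 ± 0.112 (adjusted p = 0.000181), from 38.6 to 52.1 CPM to 65.1 to 73.4. The 10 astrocyte markers summed to 4087 to 4472 CPM in H13 to H16, 3844 in H17, 3542 in H18 and 3725 to 4314 in the CORT mice, and 0 of the 10 passed within H17 to H24 (1.03% of all genes did). Sdc4, a heparan sulfate proteoglycan of the cell surface, rose by 0.84 ± 0.086 (adjusted p = 9.05e-07), and Fzd2, a Wnt receptor, by 1.27 ± 0.138 (adjusted p = 2.64e-06). Fzd2 had 11.5 to 19 CPM in vehicle mice and 24.9 to 30.4 with CORT, and it was the only 1 of 31 tested genes of Wnt signaling to pass within H17 to H24, where 1.03% of all genes passed. Of the list of inflammatory signaling, 22 genes were tested and 1 passed, beside the same 1.03%, namely Il6ra, the interleukin-6 receptor, which rose by 0.61 ± 0.139 (adjusted p = 0.0231).

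Frmpd1, a scaffold protein gene, had 14.7 to 17.1 CPM with vehicle and 24.9 to 26.7 with CORT, and rose by 0.82 ± 0.0755 (adjusted p = 2.08e-07). Cmtm3 rose by 1.25 ± 0.123 (adjusted p = 5.24e-07), Klhdc7a by 1.08 ± 0.110 (adjusted p = 8.26e-07) and Tmem52 by 2.04 ± 0.340 (adjusted p = 0.000939). Lao1, the gene of an L-amino acid oxidase, had 0.0488 to 0.160 CPM in the 6 vehicle mice, close to or below the level that 3 counts give (0.145 to 0.157 CPM), and 1.0, 1.15 and 1.74 CPM with CORT. Its fold change depends on how such low counts are treated and is not given.

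Among the genes that held, the 8 that fell with the smallest p-values within H17 to H24 were Mtss1l, 2810459M11Rik, Insc, Frem2, Plekho2, Nid2, Fgfr2 and Nr2e1. Insc, which encodes the inscuteable adaptor of spindle orientation, had 2.46 to 3.70 CPM in the 6 vehicle mice and 0.524, 0.768 and 0.902 CPM with CORT. It fell by -1.94 ± 0.324 (adjusted p = 0.000939), the largest decrease among the 28. Fgfr2, a receptor for fibroblast growth factors in glia, had 34.6 to 46.2 CPM with vehicle and 18.8, 20.2 and 23.6 CPM with CORT, a change of -0.89 ± 0.162 (adjusted p = 0.00282). Nr2e1 (TLX), a nuclear receptor of neural stem cells, fell by -0.60 ± 0.111 (adjusted p = 0.00309) from 15.2 to 20.7 CPM to 10.2 to 14.7. Frem2 (-1.13 ± 0.193, adjusted p = 0.00123) and Nid2 (-1.08 ± 0.194, adjusted p = 0.00245) encode extracellular matrix proteins, the latter of basement membranes. Mtss1l, a membrane-bending protein gene, was the most strongly expressed of these 8. It had 224 to 254 CPM with vehicle and 155 to 178 with CORT, a change of -0.48 ± 0.0784 (adjusted p = 0.000785). The others of these 8 were Plekho2 (-0.66 ± 0.116) and 2810459M11Rik (-0.79 ± 0.131). In each of these 8 genes the 6 CORT mice lay below the 6 vehicle mice. Over all 12 mice, 126 of the 145 genes that held had groups that did not overlap, against 5.75% of all genes tested, which follows in part from how they were chosen. Outside the naming rule and chosen after their values were seen, Erbb3, a neuregulin receptor gene (-1.28 ± 0.256), and Sox2, a transcription factor gene of neural progenitors (-0.64 ± 0.148), fell as well. Beside these, the 12 oligodendrocyte markers summed to 3029 to 5542 CPM in H13 to H16, 2881 in H17, 4190 in H18 and 1972 to 3849 in the CORT mice. Of them, 0 passed within H17 to H24, where 0.198% of all genes fell. Over all 12 mice 4 fell, where 1406 of 14611 genes did. Their median log2 fold change was -0.41 within H17 to H24, with 1 of the 12 above 0, and -0.58 over all 12 mice. Over all genes tested these medians were 0.0033 and 0.0064. The part of these markers in the decreases was not tested.

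The 12 WT mice and the AS mice of the continuous experiment are other mice than those compared above. The WT libraries were part of the same fit and so helped to set the spread by which the 145 genes were called (without the WT library H8, 201 genes passed within H17 to H24 and 192 held), whereas the continuous libraries were fitted apart. In WT mice, CORT against vehicle (6 mice each) altered 216 of the 14611 genes (1.48%). Of the 145 genes 97 passed there (66.9%), and all 97 changed in the direction seen in AS mice, as did the sign of 144 of the 145. These 97 are 44.9% of the 216. By contrast, of the 2467 genes called over all 12 AS mice that did not hold, 71 (2.88%) passed in WT mice and 1132 (45.9%) had the same sign there. The genes that did not hold were chosen in part for a small change against H17 and H18. Their median change, counted as positive in the direction over all 12 AS mice, was 0.40 against H13 to H16, 0.15 against H17 and H18 and -0.014 in WT mice. For the 145 the same medians were 0.67, 0.79 and 0.52, the middle value being the one on which the genes were chosen.

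Among the 48 genes that held in AS mice and missed the threshold in WT mice, 7 had an unadjusted p over 0.05 there. A test of the difference itself, the effect within H17 to H24 minus the effect in WT mice, called 0 of the 145 genes, so none was shown to respond differently in AS mice. An unadjusted p under 0.05 was found for 48 of the 145 and for 788 of all 14611 genes, and the change within H17 to H24 was larger than in WT mice in 138 of the 145, but the genes were chosen on the effect within H17 to H24, which favours both. The standard error of this difference had a median of 0.147 over genes. Xdh came nearest of those named (difference 0.80 ± 0.164, adjusted p = 0.245). It had 8.48 ± 0.825 CPM (SD, n = 6) in WT vehicle mice and 15.8 ± 1.51 in WT CORT mice (SD, n = 6), against the AS values above. For Fkbp5 the difference was 0.29 ± 0.109, for Slc2a1 0.19 ± 0.102 and for Cdkn1a -0.06 ± 0.391 (adjusted p of 0.891, 0.891 and 0.991). Plin4 differed by 1.56 ± 0.610 (adjusted p = 0.891), a wide interval.

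**Figure D3:**
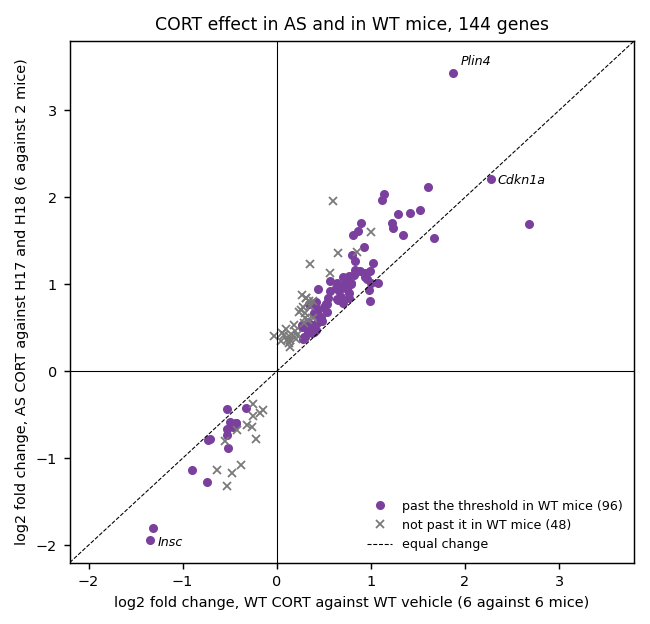
Log2 fold change with CORT of 144 genes that held, Lao1 being left out for its low counts, in WT mice (x axis, 6 against 6 mice) and in AS mice against H17 and H18 (y axis, 6 against 2). Each point is 1 gene, filled where it also passed the threshold in WT mice (96) and crossed where it did not (48), and the dashed line marks equal change. All but 1 gene have the same sign on both axes, and Plin4 lies highest on the y axis, on which the genes were chosen.

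After 5 days with a CORT pellet of 20 mg (5 AS CORT and 4 AS vehicle mice), 564 of 14949 genes passed in AS hippocampus (3.77%). Of the 145 genes, 143 were tested there and 77 passed (53.8%), all 77 in the same direction, while 136 had the same sign. Passing in AS mice within H17 to H24, in WT mice and after continuous CORT was common to 53 genes. Some targets were altered more and some less with the longer exposure, a comparison of separate experiments that was not tested. Plin4 changed by 5.12 ± 0.317 and Hif3a by 3.18 ± 0.259 with the pellet, and Sgk1, which passed in neither acute fit, by 1.59 ± 0.177 (adjusted p = 1.88e-05). Frmpd1 changed by -0.07 ± 0.113 and Insc by -0.57 ± 0.301, neither past the threshold.

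For the remaining gene lists, fewer members passed against H17 and H18 than over all 12 mice, as for all genes tested (1.03% against 17.9%), and whether a list differed between the comparisons was not tested. Of 42 splicing factors, which select exons in pre-mRNA, 22 rose and 1 fell over all 12 mice. Against H17 and H18, 0 passed in either direction and the median was 0.041, whereas against H13 to H16 29 rose, 3 fell and the median was 0.24, where 31.2% of all genes passed, 2311 higher (15.8%) and 2243 lower (15.4%). In WT mice 0 passed and the median was -0.036. Between the vehicle mice themselves, H17 and H18 against H13 to H16, 15 of the 42 were higher and 1 lower, where 1202 of 14611 genes (8.23%) passed in all. Of the cohesin genes, whose products hold sister chromatids and chromatin loops, 4 of 13 were higher over all 12 mice, 0 against H17 and H18, 9 against H13 to H16 (2311 of 14611 genes were higher there) and 0 in WT mice. Of 36 genes of synaptic vesicle release, 12 fell and 3 rose over all 12 mice, 0 passed against H17 and H18, and 13 fell and 4 rose against H13 to H16, beside the 31.2% of all genes that passed there. The medians of both were close (-0.095 against H17 and H18, -0.13 against H13 to H16), and that of WT mice was 0.026.

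Immediate early genes, the first wave of transcription after neuronal activity, had 6 of 22 lower over all 12 mice (1406 of 14611 genes were) and 0 against H17 and H18, with medians of -0.25 and -0.025. Nr4a3, 1 of the 6, had 102 to 143 CPM in H13 to H16, 104 in H17, 98.1 in H18 and 69.8 to 86.5 with CORT. It was lower in each CORT mouse than in each vehicle mouse, though its change against H17 and H18 did not pass (-0.39 ± 0.167, adjusted p = 0.487). Of 21 clock genes 4 fell and 1 rose over all 12 mice and 0 passed against H17 and H18, shares near those of all genes tested (17.9% and 1.03%). Among them Dbp had 53.3 to 73.5 CPM with vehicle and 38.4 to 44.9 with CORT (-0.38 ± 0.110 within H17 to H24, adjusted p = 0.118), and Rorb 6.81 to 9.94 CPM with vehicle and 4.21 to 6.21 with CORT (-0.73 ± 0.198, adjusted p = 0.0820). Such genes, whose groups did not overlap but whose adjusted p lay above the threshold, can be told neither as changed nor as unchanged from 2 vehicle mice. Of 36 glutamate and GABA receptor genes 1 rose and 3 fell over all 12 mice, and of 23 receptors, chaperones and coregulators of corticosteroids 3 fell. The shares over all 12 mice lie below the 17.9% of all genes tested, and in both lists 0 passed against H17 and H18.

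**Figure D4:**
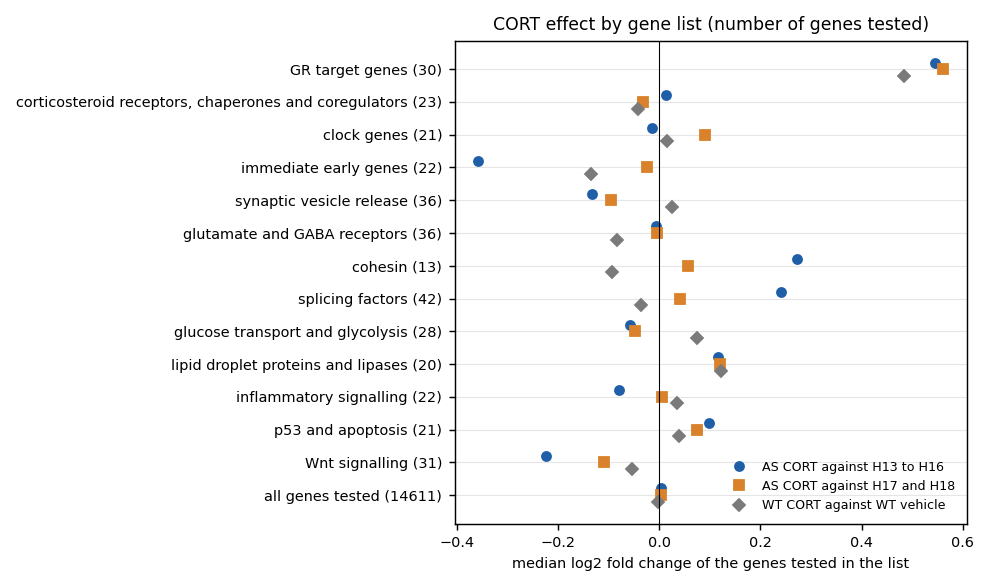
Median log2 fold change with CORT (x axis) of the tested genes of 13 gene lists and of all genes tested (y axis, number of genes tested in brackets). Circles are AS CORT mice against H13 to H16, squares against H17 and H18, and diamonds WT CORT against WT vehicle mice. GR target genes lie at 0.54, 0.56 and 0.48. Splicing factors lie at 0.24 against H13 to H16 but at 0.041 against H17 and H18 and at -0.036 in WT mice. The lists were chosen with earlier results of these data known.

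The levels of single genes that were called over all 12 mice but not against H17 and H18 are given as a description, since this choice itself favours genes in which H17 and H18 lie near the CORT mice. Smc3, a cohesin subunit, had 47.4 to 51.7 CPM in H13 to H16. It had 66.8 CPM in H17, 69.4 in H18 and 69.7 to 79.2 in the CORT mice. H17 and H18 thus lay beside the CORT mice, and they differed from H13 to H16 by 0.44 ± 0.0854 (adjusted p = 0.00245). For Smc1a, another cohesin subunit, H17 and H18 (86.1 and 92.8 CPM) lay within the range of the CORT mice (82.8 to 93.7) and apart from H13 to H16 (54.3 to 57.7). Hnrnpab, a splicing factor, had 90.7 to 102 CPM in H13 to H16, 131 and 135 in H17 and H18 and 136 to 141 with CORT. Tubb2b, a neuronal beta-tubulin, lay between, with 92.0 to 114 CPM, 129 and 122 CPM, and 135 to 158 CPM. B4galt4, a galactosyltransferase gene, and Prpsap2, which regulates nucleotide precursor synthesis, changed by 0.19 ± 0.0943 and 0.18 ± 0.0874 within H17 to H24.

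Of genes lower over all 12 mice, Nlgn2, the adhesion molecule of inhibitory synapses, had 376 to 437 CPM in H13 to H16, 286 in H17, 301 in H18 and 253 to 286 with CORT. Its change was -0.45 ± 0.0776 over all 12 mice and -0.13 ± 0.0722 (adjusted p = 0.692) within H17 to H24. Nfic, a nuclear factor I gene, had 161 to 187 CPM, then 130 and 132, then 108 to 126, and Lrfn1, a synaptic adhesion gene, changed by -0.17 ± 0.0818 within H17 to H24. Syn1, a synaptic vesicle protein gene, had 1174 to 1273 CPM in H13 to H16, 908 in H17, 985 in H18 and 753 to 919 with CORT. Gm12751 was the most divided of these, with 1.46 to 1.76 CPM in H13 to H16, 0.339 and 0.392 in H17 and H18 and 0.0980 to 0.435 with CORT. WT mice, all of the lower range of low-quality reads, had 1.86 ± 0.362 CPM with vehicle and 1.94 ± 0.258 with CORT (SD, n = 6 each). For each of these genes the division of the libraries moved with the treatment, and the part of either in the difference from H13 to H16 cannot be told apart from libraries H13 to H16 and the CORT mice alone.

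**Figure D5:**
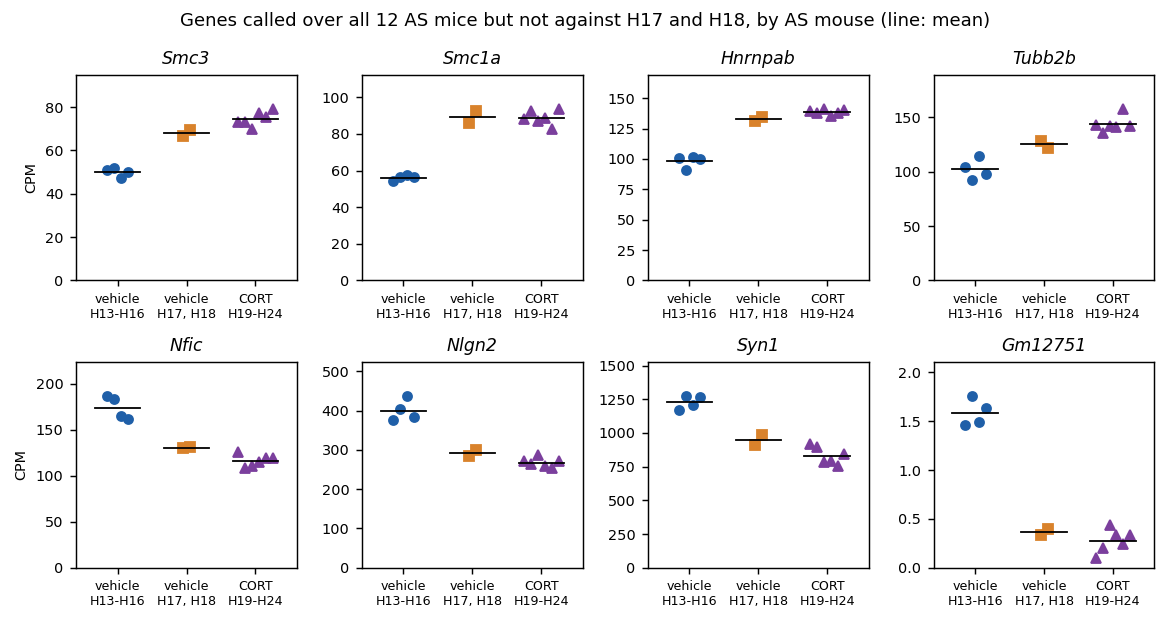
CPM (y axes, from 0) of 8 genes called over all 12 AS mice but not against H17 and H18, by AS mouse. Circles are the vehicle mice H13 to H16, squares the vehicle mice H17 and H18, triangles the CORT mice, and lines group means. H17 and H18 lie nearer to the CORT mice than H13 to H16 do, which follows in part from how the genes were chosen.

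In the other direction, 5 genes passed against H17 and H18 and not over all 12 mice, namely Bcl2l1, 2610005L07Rik, Adgrg1, Gpr146 and Ubxn7. Only 2610005L07Rik, a transcribed pseudogene, differed between AS and WT mice in the test of the difference (-1.51 ± 0.254, adjusted p = 0.0498), where 788 genes had an unadjusted p under 0.05. Its levels were 4.6 to 5.45 CPM in H13 to H16, 14.1 in H17, 15.7 in H18 and 5.12 to 7.53 with CORT. The CORT mice thus lay near H13 to H16, and H17 and H18 stood apart from all of them. In the test of the difference 0 genes passed after removal of GC and length trends. The count was also 0 with AS CORT replicate 1, 2, 3, 5 or 6 left out. It was 1 without AS CORT replicate 4 and 1 with limma-voom.

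Neuronal and regional markers were checked against the tissue label. The 10 markers of CA1 to CA3 pyramidal cells summed to 1668 to 1800 CPM in H13 to H16, 1411 in H17, 1556 in H18 and 1029 to 1664 in the CORT mice, and those of dentate gyrus, 7 in number, to 428 to 757, 765, 518 and 690 to 1162 CPM. For dentate markers 3 of 7 rose over all 12 mice, where 1206 of 14611 genes rose. Within H17 to H24 0 passed, where 1.03% of all genes passed. Their median log2 fold change was 0.32 within H17 to H24, with all 7 above 0. It was 0.30 for H17 and H18 against H13 to H16 and -0.14 in WT mice with CORT. The desmosomal gene Dsp had 41.8 to 115 CPM with vehicle and 102 to 223 with CORT. Choroid plexus markers summed to 30.3 to 51.2 CPM in the 12 AS mice, but reached 1093 CPM in 1 WT library. No marker of any of the 12 lists was at 0 in all AS mice, and within H17 to H24 Kdr was the only marker called.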

How the data were processed

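The authors sequenced stranded mRNA libraries (paired-end, DNBseq), aligned reads to mm10 with STAR and deposited HTSeq-count tables of raw counts per gene. The strand setting of the counting and the annotation release are not given in the sources used here. The 5 summary lines of the count tables were kept out of library sizes and tests, and 13.1 to 15.9% of reads in the AS libraries were on no gene. A gene was tested where 3 or more libraries of a group had over 20 median-of-ratios normalized counts (14611 of 55414 IDs, 52133 of which have a symbol). edgeR 4.0.16 (R 4.3.3, TMM, quasi-likelihood test, Benjamini-Hochberg adjustment, threshold 0.05) was fitted to 24 acute libraries, with and without a term for the division of the libraries, and separately to 18 continuous libraries, without the 2 that the study left out. CPM were computed from the counts with TMM-scaled library sizes.

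Genes were named by p within H17 to H24 (12 that rose, 8 that fell), by size of change (5 more), by p among genes that did not hold (4 in each direction), from the test of the difference, as 6 fixed genes and from each gene list. Genes were left out of the text where the rule gave more than the report needed. Others are said to be chosen after their values were seen. The members and lists were chosen with earlier results of these data known. The labels do not say whether replicates were separate litters or days, so p-values cover the spread between these mice. Alternatives used DESeq2 1.42.0, limma 3.58.1 (voom), other filters and samples, and removal of GC and length trends. The model fits were tested on simulated data.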

Additional observations from a re-analysis of the deposited data

Results flagged for a closer look

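In 2 groups of 6 AS mice for each of 67 genes, 134 checks were made for a mouse far from the other 5, of which about 6.7 (1 in 20) are met by chance, and 6 were. Among CORT mice, H20 had 24.9 CPM of Frmpd1 (others 26.3 to 26.7), H23 had 54.2 CPM of Hacd2 (others 58.2 to 60.3) and 158 CPM of Tubb2b (others 135 to 143), and H21 had 2.66 CPM of Tmem52 (others 2.29 to 2.41) and 27.6 CPM of Slc16a1 (others 21 to 22.9). Among vehicle mice, H16 had 80.7 CPM of Sgk1 (others 39.7 to 46.0). The effect of CORT on 2610005L07Rik differed between AS mice within H17 to H24 and WT mice by -1.51 on the log2 scale (edgeR adjusted p = 0.0498), a value that lies near the threshold.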

How the results depend on the processing

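With 1 AS or continuous library left out at a time, the number of genes called ranged from 1533 to 3492 over all 12 AS mice (lowest without H14), from 42 to 160 within H17 to H24 (42 without H17), from 77 to 1187 between the vehicle mice (77 without H18, 400 without H17), from 0 to 1 for the difference between AS and WT mice and from 362 to 613 after continuous CORT (lowest without AS vehicle replicate 3). Genes that held numbered 41 to 156 and cohesin genes higher over all 12 mice 2 to 6. With limma-voom, 5056 genes were called over all 12 mice, 386 within H17 to H24, 350 held, 341 in WT mice and 2391 between the vehicle mice, with 9 cohesin genes. At an adjusted p under 0.01 these counts were 929, 84, 78, 111, 400 and 2, with 5 splicing factors and 0 genes for the difference. The difference gave 3 genes with DESeq2 and 0 after removal of GC and length trends, which left 12 splicing factors. With no filter on low counts 13 splicing factors were higher and 754 genes differed between the vehicle mice. Over all 12 mice 7 cohesin genes were higher without WT library H8, and against H13 to H16 alone 8 were, among 4420 genes. With all 20 continuous libraries 220 genes were called. The causes were not tested. GR targets higher within H17 to H24 numbered 10 to 18 over these alternatives. Changes that turned sign were small or divided: over all 12 mice 2610005L07Rik (0.10 with limma-voom, 0.37 against H13 to H16 alone), Ube3a (-0.00099) and Per1 (0.070) after removal of GC and length trends, and within H17 to H24 Smc1a (-0.076 to 0.035 with single mice left out, 0.035 without H18 and 0.0024 without AS CORT replicate 5). No paired analysis was possible because the labels give the groups no shared replicate numbers. Leaving out H17 or H18 leaves 1 vehicle mouse, assumed to vary like the other groups, and depth leaves genes near 3 counts unresolved. Leaving out single continuous libraries was chosen after seeing the data.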
